A study of Mus musculus with 5 samples.

Results

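The clustered protocadherins measured here were the genes of the authors' deposited table whose symbols follow the pattern Pcdha, Pcdhac, Pcdhb, Pcdhga, Pcdhgb or Pcdhgc with a number. This gave 37 genes of the 14927 in that table and of the 57186 in the gene tables of each library: 22 gamma genes (12 gamma-A, 7 gamma-B and 3 gamma-C), 14 beta genes and the alpha gene Pcdhac2. The family was picked because Pcdhgc4 was lower in het than in WT atria, so the values of this comparison are given for the members as a description, without a test. The tissue was the cardiac atria of mice heterozygous for MRC2 E990G (het; replicates 5, 6 and 7) and of Wild-type mice (WT; replicates 7 and 8), all of batch 2. The series describes atria of 7 het and of 8 WT mice, whose ages spanned 4 to 10 months. The labels used here give no sex, no strain and no age of a single animal. MRC2 is an endocytic receptor for collagen on fibroblasts and other mesenchymal cells, and the question of the series is what the variant does to atrial fibroblasts and to the liability to atrial fibrillation. RNA of each atrial pair, made of a kit extract and a second extract of the leftover tissue, was sequenced as stranded polyA libraries.

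Clustered protocadherins are homophilic adhesion proteins of the cadherin superfamily, best known from neurons, where the set of isoforms on a cell marks it as itself. In the alpha and gamma clusters each gene has its own promoter and its own large variable exon, which is spliced to a few constant exons at the end of the cluster that all genes of the cluster use. Beta genes have a variable exon and no constant exons. CTCF and cohesin bring a distant enhancer to the chosen promoter, and DNA methylation keeps other promoters silent. Most of the genes named C-type at the end of the alpha and gamma clusters are expressed more uniformly among neurons than the others.

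All 37 members lie on chromosome 18 in the GENCODE M21 annotation, a mouse annotation of an earlier build than the submitters' GRCm39, used here for exon structure and gene order only. It holds all 54 transcripts of the members, each with the same length as in the deposited files. Each gamma gene can splice to 3 constant exons that add up to 2119 bases in most gamma transcripts and are shared with the other 21 gamma genes. Of the 22 other gamma transcripts with 4 exons that end in these constant exons, between 41.7% and 66.8% of the bases (median 45.0%) are shared with other genes of the family. The Pcdhgc4 transcript ENSMUST00000195239 is an exception. It is 2272 bases long, its own part is a first exon of 153 bases, and 93.3% of it is shared. A read from a shared exon does not tell which gene it came from, and RSEM divides such reads among the genes by a model. The expected counts, RSEM's estimates, were fractional in all 5 libraries for each of the 22 gamma genes and Pcdhac2, and whole to within 0.005 in all libraries for 12 of the 14 beta genes.

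**Figure D1:**
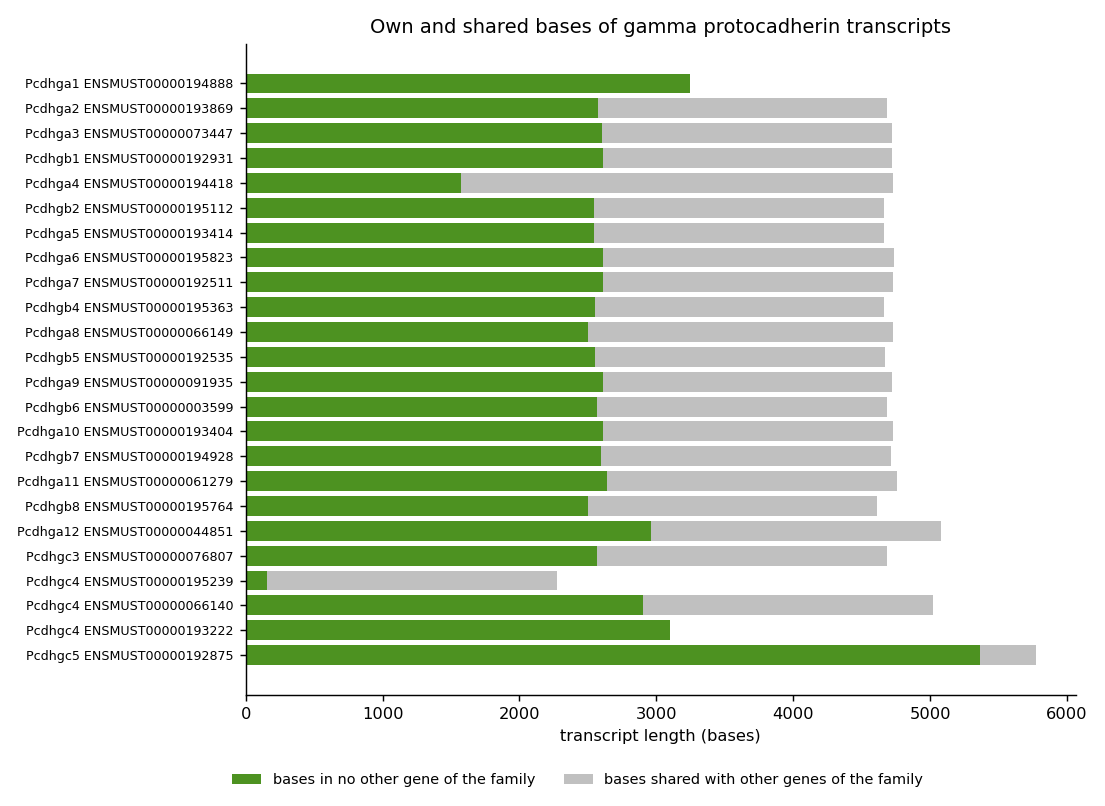
Length in bases of the most abundant transcript of each gamma gene, with all 3 transcripts of Pcdhgc4, split into bases found in no other gene of the family (green) and bases shared with others (grey). ENSMUST00000195239 of Pcdhgc4 has 153 bases of its own and 2119 shared ones.

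The libraries held between 17784601 (WT 8) and 28353091 (het 7) expected counts. Atrial markers were high in every library (Nppa from 17767 to 33852 CPM, the edgeR count scaled to library size), and the 4 ventricular markers summed to 213 CPM at most. The Y-linked gene Ddx3y reached 938 expected counts in WT 7 and no more than 3 elsewhere, so WT 7 stands apart in sex. Xist was at 13247 to 15280 expected counts in the het libraries, at 21.5 in WT 7 and at 6117 in WT 8, so WT 8 also lay below the het libraries in this gene. These counts are not scaled to library size, and WT 8 held the fewest counts in all, so they overstate its gap. Transcripts of olfactory genes summed to 29.3 to 40.0 CPM in het and to 97.1 and 124.7 CPM in WT libraries. Fold changes followed transcript length: the median log2 fold change of het over WT was -0.38 in the decile of tested genes with the shortest transcripts and 0.33 in the decile with the longest.

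TPM, the authors' transcript abundances scaled to transcript length and library size, show the order of levels within the family. Pcdhgc4 had the highest mean, at 15.9, 20.8 and 22.4 TPM in het 5, 6 and 7 and at 35.0 and 40.5 TPM in WT 7 and 8. Pcdhgc3 followed with 17.0, 17.3 and 19.8 TPM in het and 12.3 and 7.31 TPM in WT atria. The order of these genes was not the same in every library: Pcdhgc3 was slightly above Pcdhgc4 in het 5, slightly under it in het 6 and het 7 and well under it in both WT libraries. Then came Pcdhga12 (mean over the 5 libraries 3.45 TPM), Pcdhgb7 (3.12 TPM), Pcdhga11 (2.73 TPM), Pcdhgb6 (2.26 TPM) and Pcdhgb2 (1.93 TPM), whose library values overlap with those of their neighbours in this order. The 19 gamma-A and gamma-B genes had means of 0.404 to 3.45 TPM, with a median of 1.07 TPM. The 14 beta genes were lower, with means of 0.24 (Pcdhb3) to 1.6 TPM (Pcdhb17) and a median of 0.455 TPM. Pcdhac2, in mice needed for the spacing of serotonergic axons, was the lowest of all, with 0.172 TPM on average.

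Among the members, genes nearer the end of their cluster tended to have higher levels. Across the 19 gamma-A and gamma-B genes the Spearman correlation of gene order with mean TPM was 0.48, and across the 14 beta genes it was 0.58. These are descriptions across genes of the same 5 libraries. The beta value leaves out 8 beta genes that are not in the authors' deposited table. The 6 gamma-A and gamma-B genes nearest the gamma-C genes, from Pcdhgb6 to Pcdhga12, had means of at least 1.64 TPM, and in the stretch before them Pcdhgb2 alone reached this. Another 21 genes of the family named in the reference table, of which 12 were alpha genes, 8 beta genes and Pcdhac1, are not among the members. The highest expected count of any of them in a library was 34, and the highest of an alpha gene 14.3.

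**Figure D2:**
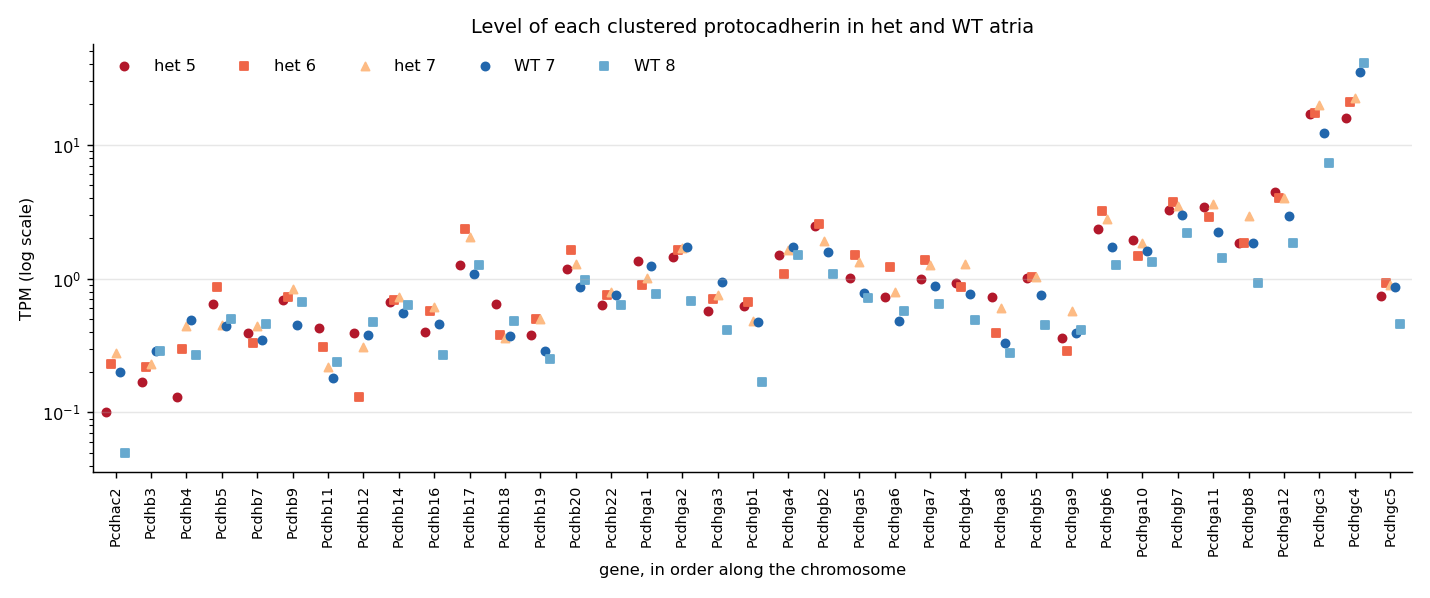
TPM (log axis) of the 37 members in order along the chromosome, with red symbols for the 3 het and blue symbols for the 2 WT libraries. Pcdhgc3 and Pcdhgc4 stand above all others; Pcdhgc4 is higher in both WT libraries and Pcdhgc3 in the 3 het libraries.

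Among the gamma-C genes, Pcdhgc4 was the only one lower in het. Pcdhgc4 is in mice essential for the survival of cortical interneurons. Its level was 33.8, 41.0 and 40.9 CPM in het 5, 6 and 7, against 72.4 and 90.5 CPM in WT 7 and 8. The 2 groups lie far apart, with the highest het library below the lowest WT library. The het mean was 38.6 ± 4.15 CPM (SD, n = 3), against a WT mean of 81.4 ± 12.8 CPM (SD, n = 2), and edgeR's log2 fold change of het over WT was -1.08 (SE 0.14). This is the value that led to the choice of the family, and nothing is read from it. In bulk tissue fewer cells of a type and less RNA per cell cannot be told apart, for this and all other members.

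Nearly all of the Pcdhgc4 difference lay in ENSMUST00000195239, the transcript made mostly of shared constant exons. That transcript alone had 31.1, 38.3 and 39.1 CPM in the het libraries and 69.4 and 89.1 CPM in the WT libraries. The remaining Pcdhgc4 transcripts together had 2.63, 2.65 and 1.82 CPM in het and 3.0 and 1.41 CPM in WT atria, where the groups overlap. The transcript with the full variable exon of 2905 bases, ENSMUST00000066140, had 48.7, 59.3 and 20.98 expected counts in het and 39.9 and 3.63 in WT libraries. ENSMUST00000195239 made up 97.0% ± 0.56 of the gene in het (SD, n = 3) and 98.3% ± 0.91 in WT (SD, n = 2) by the authors' isoform percent. Each het value was below both WT values. With the other transcripts nearly equal between groups, this largely follows from the lower level of ENSMUST00000195239 in het. The percent is therefore not separate from the value that led to the choice of the family, and nothing is read from it. The exact two-sided permutation p was 0.20, the smallest that 3 against 2 libraries allow, and 1 after Benjamini-Hochberg adjustment over the 6 members compared for isoform percent. The difference between the means was -1.33 percentage points. So the level of Pcdhgc4 in these tables rests on a transcript that has 93.3% of its bases in common with other gamma genes. The part of RSEM's division of reads in this difference, and in those of Pcdhgc3 and the other gamma genes, was not tested.

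Pcdhgc3, which in mice shapes dendrites through the Wnt pathway protein Axin1, went the other way. It had 77.96, 74.8 and 80.2 CPM in het 5, 6 and 7, against 55.7 and 37.3 CPM in WT 7 and 8. All het libraries were above both WT libraries, and WT 8 was lower than WT 7. The het mean was 77.7 ± 2.74 CPM (SD, n = 3) and the WT mean 46.5 ± 13.01 CPM (SD, n = 2), a log2 fold change of 0.74 (SE 0.16). Its transcript ENSMUST00000076807, with a variable exon of its own of 2568 bases, held 96.8% ± 0.99 of the gene in het, against 98.2% ± 2.54 in WT (SD; exact two-sided permutation p = 0.60, 1 after adjustment). The antisense gene BC037039 overlaps exon sequence of Pcdhgc3 and had 38.1 to 68.9 expected counts per library. Which of the Pcdhgc3 transcripts it overlaps was not resolved. The libraries were stranded, but whether the counting used the strand is not given in the sources used here. Pcdhgc5 had 4.24, 4.75 and 4.38 CPM in het and 4.78 and 2.93 CPM in WT libraries, with overlapping groups and a log2 fold change of 0.19 (SE 0.29). Most of Pcdhgc5 was assigned to the retained-intron transcript ENSMUST00000192875 (79.8% ± 13.99 in het, against 86.2% ± 8.7 in WT, SD; exact two-sided permutation p = 0.80, 1 after adjustment).

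The share of Pcdhgc4 in the gamma cluster follows from the value that led to the choice of the family. It held 13.1%, 16.1% and 15.7% of the cluster's expected counts in the het libraries, against 29.4% in WT 7 and 42.8% in WT 8. Pcdhgc3 held 30.3%, 29.3% and 30.9% in het, against 22.6% and 17.6% in WT. Of the gamma counts without Pcdhgc4, Pcdhgc3 held 34.9%, 35.0% and 36.6% in het, against 32.0% and 30.8% in WT. In all, the 22 gamma genes had a mean sum of 257 ± 2.47 CPM over het (SD, n = 3), against 229 ± 24.6 CPM over WT (SD, n = 2). The het libraries lay at 257, 255 and 259.8 CPM, WT 7 at 246 and WT 8 at 211 CPM. This is a log2 ratio of 0.17, which was 0.02 with summed TPM, 0.28 without WT 7 and 0.06 without WT 8. Without Pcdhgc4 the sum was 224, 214 and 219 CPM in het and 174 and 121 CPM in WT libraries, a log2 ratio of 0.59. That ratio moved to 0.86 without WT 7 and to 0.33 without WT 8.

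**Figure D3:**
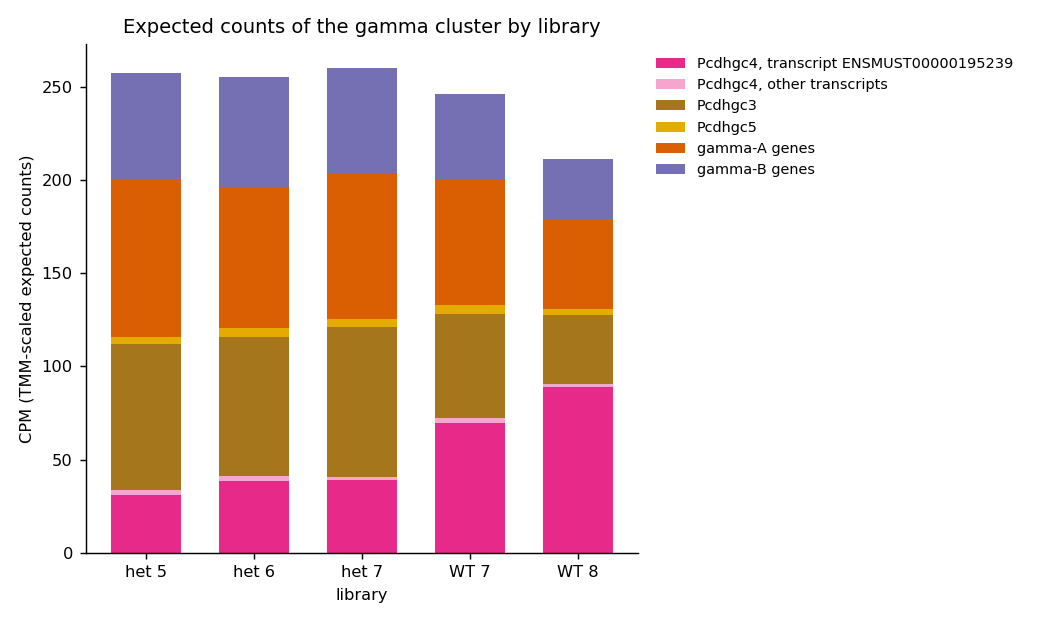
Stacked CPM of the gamma cluster in each library, 3 het on the left and 2 WT on the right, split by gene or gene group. The totals lie between 211 and 259.8 CPM, while the part of ENSMUST00000195239 (bottom) is 31.1 to 39.1 CPM in het and 69.4 to 89.1 CPM in WT.

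Most gamma-A and gamma-B genes were higher in het. Of the 19, 16 had a log2 fold change above 0, with a median of 0.58, where the median of all 16412 genes tested was -0.001. With each library's trend on transcript length removed the median was 0.45, against 0.036 over all tested genes, and 15 of 19 were above 0. These genes share their constant exons with ENSMUST00000195239 of Pcdhgc4, and RSEM divides the shared reads among them. Their values are therefore not separate from that of Pcdhgc4, and the part of this division was not tested. Pcdhga11 had 16.2, 12.9 and 15.1 CPM in het 5, 6 and 7, against 10.3 and 7.41 CPM in WT 7 and 8. Its groups do not overlap, and the log2 fold change was 0.73 (SE 0.20). Pcdhgb6 had 10.8, 14.01 and 11.5 CPM in het and 7.86 and 6.42 CPM in WT, also without overlap (0.75, SE 0.20). In both genes WT 8 was the lowest library.

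Pcdhga12, the gene of this group with the highest TPM, had 21.2, 17.6 and 17.2 CPM in het and 14.2 and 9.18 CPM in WT (log2 fold change 0.67, SE 0.20). Pcdhgb7 had 15.01, 16.4 and 14.4 CPM in het and 13.6 and 11.2 CPM in WT (0.29, SE 0.17), and Pcdhgb2 had 11.1, 9.16 and 7.84 CPM in het and 7.18 and 5.28 CPM in WT (0.58, SE 0.23). In these 3 genes too every het library was above both WT libraries, as was the case in 21.1% of all tested genes. Pcdhga10 overlapped between groups, with 9.10, 6.49 and 7.62 CPM in het and 7.42 and 6.78 CPM in WT (0.12, SE 0.22). The noncoding gene Gm26672 lies antisense to exons of Pcdhga10, Pcdhga11, Pcdhga12 and Pcdhgb7 and had 83.4 to 232 expected counts per library. The largest log2 fold change of the group was that of Pcdhga8 (0.77, SE 0.40), with 3.40, 1.73 and 2.48 CPM in het and 1.54 and 1.46 CPM in WT. The smallest was that of Pcdhga9 (-0.29, SE 0.41), and Pcdhga3 and Pcdhga1 were also below 0 (-0.15 and -0.07).

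The isoform percent, an RSEM estimate, varied among libraries of one group in Pcdhga12 and Pcdhgb2. Whether the transcripts in use varied as well was not tested. The 4-exon transcript of Pcdhga12 held 66.6%, 47.9% and 72.0% of the gene in het and 77.4% and 37.8% in WT libraries. That of Pcdhgb2 held 93.9%, 59.4% and 100% in het and 100% and 89.0% in WT libraries. For both the exact two-sided permutation p was 1.

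The beta genes, most of them with whole counts, had a smaller median difference. Of 14, 9 had a log2 fold change above 0, with a median of 0.18, which was 0.06 with the length trend removed, when 7 of 14 were above 0. Their sum had a mean of 39.5 ± 2.60 CPM over het (SD, n = 3), against 34.2 ± 4.52 CPM over WT (SD, n = 2). The 3 het libraries lay at 37.6, 42.5 and 38.5 CPM, WT 7 at 31.0 and WT 8 at 37.4 CPM, so het 5 and WT 8 were nearly alike. Pcdhb17, the beta gene of the highest TPM, had 5.82, 10.2 and 8.30 CPM in het and 4.96 and 6.37 CPM in WT, with overlap (log2 fold change 0.52, SE 0.27). Pcdhb20 had 3.99, 5.24 and 3.86 CPM in het and 2.91 and 3.68 CPM in WT, without overlap by a small margin (0.41, SE 0.29; 0.24 without WT 7).

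Pcdhb22 was close to equal, with 4.22, 3.98 and 4.27 CPM in het and 3.52 and 4.32 CPM in WT (log2 fold change 0.09, SE 0.27). Its longer transcript held 87.6% ± 11.97 of the gene in het, against 73.5% ± 22.1 in WT (SD; exact two-sided permutation p = 0.60, 1 after adjustment). Pcdhb3 was lower in every het library than in both WT libraries, at 0.610, 0.761 and 0.758 CPM in het against 1.07 and 1.17 CPM in WT (-0.64, SE 0.51). It had 13 to 26 expected counts per library, so counting error is large. Pcdhb12 (-0.75, SE 0.56), with 8 to 26.3 counts, and Pcdhb11 (0.45, SE 0.52; 0.18 without WT 7), with 19 to 40, are as imprecise. In the alpha gene Pcdhac2, with 6.06 to 42.6 expected counts, the log2 fold change was 0.52 (SE 0.62), 1.65 without WT 7 and -0.04 without WT 8.

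**Figure D4:**
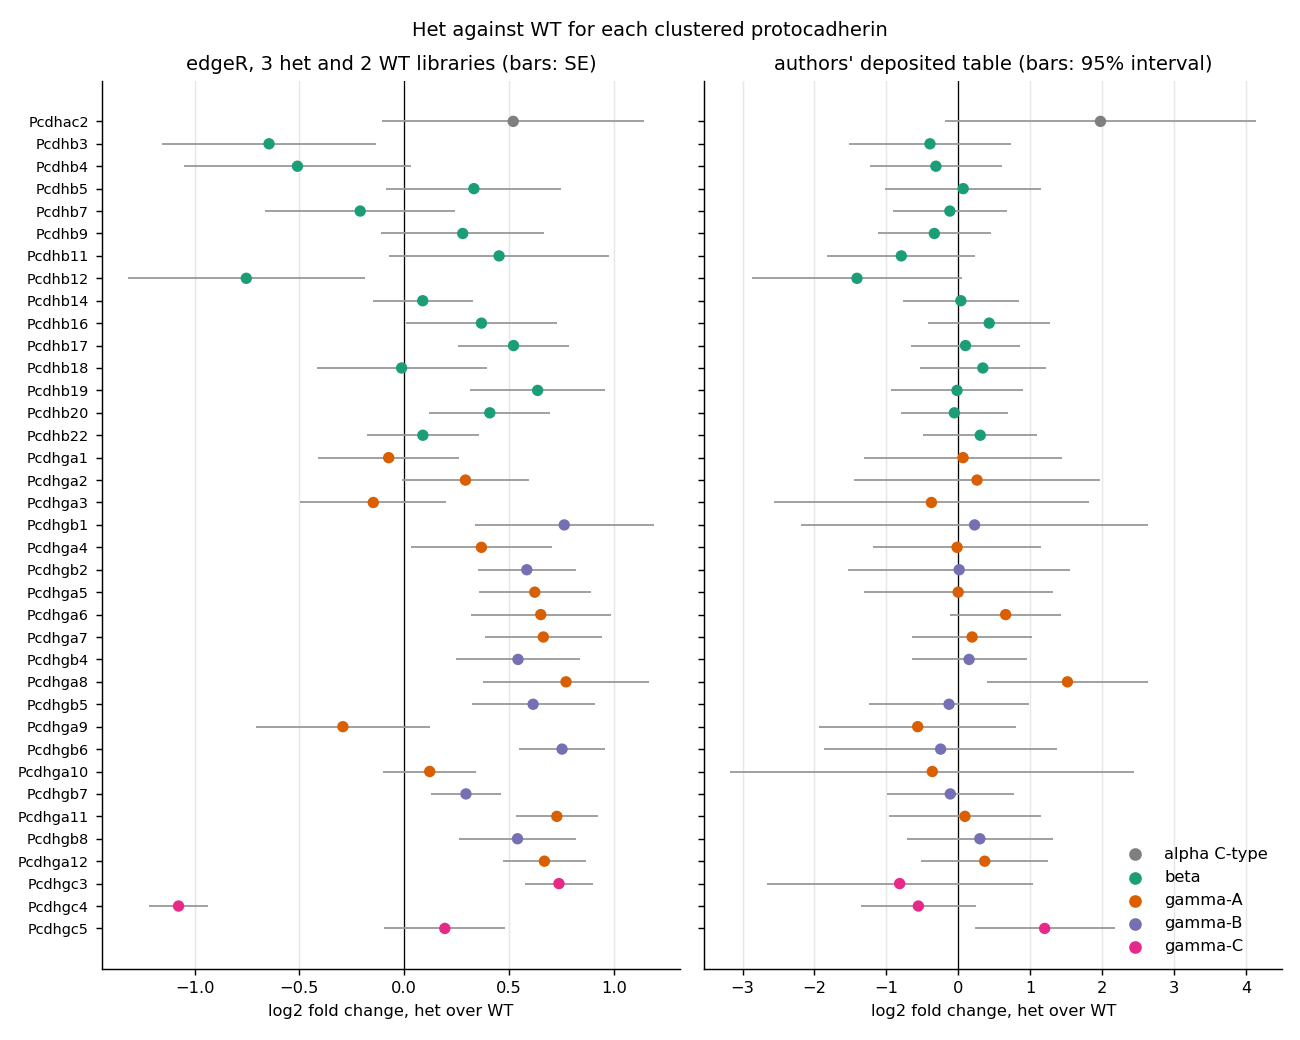
Log2 fold change of het over WT for each member, on the left from edgeR on the 5 libraries with SE bars, on the right from the authors' deposited table with its 95% intervals; the horizontal scales differ. On the left Pcdhgc4 is at -1.08 and most gamma-A and gamma-B genes are above 0; on the right 35 of 37 intervals span 0.

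All 37 members passed edgeR's filter on low counts. Of them 3 were called higher (Pcdhgc3, Pcdhga11 and Pcdhgb6) at an adjusted p under 0.05, where 2.99% of all tested genes were, and 1 was called lower (Pcdhgc4), where 2.66% were. Of the members 8 had an unadjusted p under 0.05, as did 24.7% of tested genes. In 14 members all het libraries were above both WT libraries, against 21.1% of tested genes, and in 2 all were below both, against 21.2%. Since the family was picked from this comparison, nothing is read from these counts. Without WT 7, Pcdhga12 was called (log2 fold change 1.03) and Pcdhgb6 was not, and Pcdhgc3 stood at 1.06. Without het 5 or het 7 no member was called, and without het 6 or WT 8, or with the length trend removed, Pcdhgc4 was the only one.

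In the authors' deposited table of het against WT, whose samples are not given in the sources used here, 0 of 37 members and 0% of the 14927 genes had an adjusted p under 0.05. An unadjusted p under 0.05 was found in the authors' deposited table for 4 members and for 5.6% of all genes. The moderated t of the authors' deposited table is 0 for every log2 fold change up to 0.263 in size (1.2-fold), so its p-values do not test against no change. Its intervals do not follow them: of these 4 members, Pcdhb12 and Pcdhac2 have intervals in the authors' deposited table that span 0. In the authors' deposited table Pcdhgc4 had a log2 fold change of -0.56 (95% interval -1.36 to 0.25), the same sign as in the 5 libraries. Whether the 5 libraries are among the samples of that table is not known, and the family was picked for this sign. The shared sign is therefore no separate evidence. In the authors' deposited table Pcdhgc3 stood at -0.82 (-2.66 to 1.03), against 0.74 (SE 0.16) in the edgeR fit of the 5 libraries. The members farthest above 0 by p in the authors' deposited table were Pcdhga8 (1.52, 0.40 to 2.64), Pcdhgc5 (1.20, 0.23 to 2.17) and Pcdhac2 (1.98, -0.19 to 4.14). Farthest below were Pcdhb12 (-1.41, -2.87 to 0.05) and Pcdhb11 (-0.79, -1.82 to 0.24) in the authors' deposited table, followed by Pcdhgc4. Pcdhga11 (0.09) and Pcdhgb6 (-0.25) were close to 0 in the authors' deposited table, with 95% intervals that span 0. The median of the members in the authors' deposited table was 0.01, and 19 were above and 18 below 0.

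Genes that act on the clusters or work with their proteins were read from the same fit over all genes. Of 12 genes of CTCF, cohesin and cohesin loading, 5 rose in het and 0 fell, where 2.99% of all tested genes rose. X-linked Stag2, a cohesin subunit gene, had 85.9, 82.4 and 67.3 CPM in het and 42.5 and 47.9 CPM in WT atria (log2 fold change 0.80, SE 0.14, edgeR adjusted p = 0.0229). The cohesin loader gene Nipbl had 67.7, 70.4 and 69.2 CPM in het and 42.0 and 43.5 CPM in WT atria (0.69, SE 0.12, edgeR adjusted p = 0.0229). Stag1 (0.72), Smc3 (0.52) and the cohesin regulator gene Pds5b (0.55) rose as well, with edgeR adjusted p of 0.0230, 0.0395 and 0.0398. Ctcf itself averaged 54.1 ± 5.10 CPM over het (SD, n = 3), against 46.4 ± 3.03 CPM over WT (SD, n = 2; 0.22, SE 0.13, edgeR adjusted p = 0.325). The median of the 12 was 0.45, against -0.001 over all tested genes.

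These transcripts are long, with a median of 4655 bases against 2519 over all tested genes. With the length trend removed the median of the list was 0.35 and 0 of 12 genes were called, where 0.317% of all genes were higher. Stag2 then stood at 0.62 (edgeR adjusted p = 0.0638) and Nipbl at 0.59 (edgeR adjusted p = 0.0560). With any single het library left out, too, none of Stag2, Nipbl, Stag1 and Smc3 was called. Without WT 7, Stag2 (0.72, edgeR adjusted p = 0.0457) and Nipbl (0.67, edgeR adjusted p = 0.0340) were called, and Stag1 (0.59, edgeR adjusted p = 0.0567) and Smc3 (0.44, edgeR adjusted p = 0.113) were not. With limma-trend on log2(TPM + 1) none of the 4 was called, and Stag1 stood at 0.26.

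**Figure D5:**
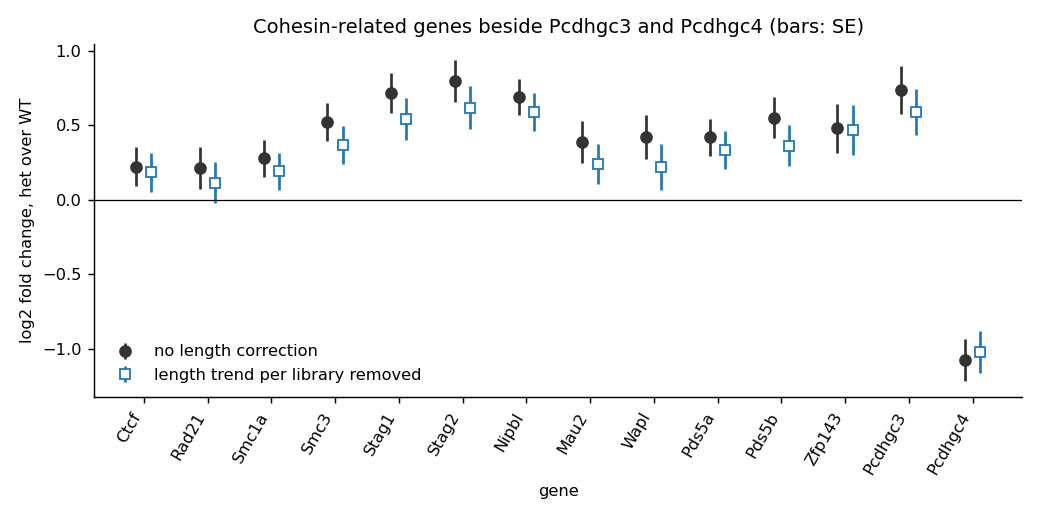
Log2 fold change of het over WT with SE bars for the 12 genes of CTCF, cohesin and its loading, and for Pcdhgc3 and Pcdhgc4, without (filled circles) and with (open squares) removal of each library's length trend. The 12 genes are above 0 in both fits, with medians of 0.45 and 0.35, while Pcdhgc4 is at -1.08 and -1.02.

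Smchd1, which represses clustered protocadherins in mice, rose by 0.51 on the log2 scale (SE 0.13, edgeR adjusted p = 0.0439). In the WAVE complex, which the cytoplasmic tails of many clustered protocadherins can bind, 1 of 11 genes rose and 1 fell, namely Nckap1 (0.53, edgeR adjusted p = 0.0352) and Brk1 (-0.44, edgeR adjusted p = 0.0472). Of 12 cytoplasmic partners tested 0 were called, with Rhoa at 227 ± 8.27 CPM over het (SD, n = 3) against 217 ± 33.9 CPM over WT (SD, n = 2), and Rac1 at 172 ± 18.1 CPM over het against 159 ± 37.1 CPM over WT. Of 9 genes of shedding and gamma-secretase 0 were called. Adam10, a sheddase gene, was at 0.43 (edgeR adjusted p = 0.0544) and Aph1a, a gamma-secretase subunit gene, at -0.21 (edgeR adjusted p = 0.325).

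Of 10 non-clustered protocadherins tested Pcdh7 rose (0.62, SE 0.13, edgeR adjusted p = 0.0280), with 194, 189.7 and 174 CPM in het and 120.2 and 122 CPM in WT atria. Of 12 other cadherins tested Fat1 (0.72, SE 0.16, edgeR adjusted p = 0.0308) and Cdh11 (0.49, SE 0.13, edgeR adjusted p = 0.0474) rose, and in both lists 0 fell. With any single het library left out, none of Smchd1, Nckap1, Brk1, Pcdh7, Fat1 and Cdh11 was called (edgeR adjusted p from 0.0621 to 0.154). Without WT 7, Fat1 was the only one of these 6 genes called, and without WT 8 Smchd1, Nckap1 and Pcdh7 were. Calls of Smchd1 and Cdh11 were also lost with upper-quartile scaling, with a mean of at least 1 CPM and with limma-voom, and that of Brk1 with library size alone, with every gene with a count and with limma-voom. With limma-trend on log2(TPM + 1) none of the 6 was called, and Smchd1 stood at 0.02. With the length trend removed Fat1 was the only one of the 6 called (0.78, edgeR adjusted p = 0.0456). Smchd1 was then at 0.49, close to its value of 0.51 with the trend in place, Nckap1 at 0.39, Brk1 at -0.18, Pcdh7 at 0.41 and Cdh11 at 0.29.

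Markers of cells that could carry these transcripts were summed per library. The 8 Schwann cell markers summed to 191, 163 and 155 CPM in het and 129 and 129 CPM in WT libraries, with 0 of 7 tested genes called. The 10 markers of peripheral neurons were low, at 20.7, 14.3 and 19.9 CPM in het and 26.6 and 19.9 CPM in WT libraries (0 of 8 called). The 8 fibroblast markers summed to 1944, 1888 and 1881 CPM in het, 1889 CPM in WT 7 and 1321 CPM in WT 8. WT 8 had the lowest sum of gamma genes and the lowest sum of fibroblast markers, and the fibroblast sum of WT 7 lay within the range of the het libraries. Single markers differed. Dcn, the largest part of the sum (605 CPM in WT 8), Pdgfra, Dpt and Tcf21 were lowest in WT 8. Col1a1 and Mrc2 were lowest in het 6, Col1a2 in het 5 and Lum in WT 7. Of the fibroblast markers 1 of 8 rose (Lum). The 8 atrial cardiomyocyte markers summed to 65799, 62039 and 70227 CPM in het and 88387 and 92206 CPM in WT libraries, with 1 higher (Ryr2) and 2 lower (Nppa and Myl4), and of 3 ventricular markers tested 1 was lower (Myh7). Endothelial (0 of 6 called), smooth muscle and pericyte (1 lower of 6, Tagln), epicardial (0 of 5) and macrophage markers (2 higher of 5, Adgre1 and Cd163) were measured as well. Over all tested genes 2.99% were called higher and 2.66% lower. The other macrophage markers were at 0.39 (Csf1r), 0.10 (Cd68) and 0.10 (C1qa). Acta2, Myh11 and Kcnj8 were below 0 like Tagln, and Rgs5 (0.37) and Pdgfrb (0.24) above. With the length trend removed Tagln and Adgre1 were still called and the other 6 markers called before were not. Myh11 was then called lower (-0.80, edgeR adjusted p = 0.0461). Nppa then stood at -0.34 against -0.64 before, Myl4 at -0.38 against -0.68, and Lum at 0.54 against 0.50. No marker of these lists was at 0 in all libraries. The part of any of these cell types in the protocadherin values was not tested.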

How the data were processed

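Expected counts are the authors' RSEM estimates per gene and transcript, not normalized, per the file headers. The deposited tables also hold the authors' TPM and, per transcript, their isoform percent. The authors' deposited comparison table gives, per gene, the log2 fold change, a moderated t score and p-values. The tools edgeR, FastQC, limma, MultiQC, RSEM, SAMtools, STAR and Trim Galore and the build GRCm39 come from the submitters' processing notes, without versions.

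Groups came from sample titles. Counts were rounded and tested over 16412 of 57186 genes that passed edgeR's default filter, with TMM scaling, the robust quasi-likelihood test and Benjamini-Hochberg adjustment at 0.05. CPM are TMM-scaled. Each SE is the size of the log2 fold change over the root of its F statistic. Single values were tested by exact permutation over 10 splits (smallest two-sided p 0.2). Nothing says that libraries are separate animals beyond their titles, so p-values measure the spread between these libraries. Totals of 17784601 to 28353091 counts set the precision.

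Members and lists were chosen with earlier results of these data known. Named were the C-type members, called members, the 3 of highest TPM per cluster, the 3 of smallest p per direction here and in the authors' table, and per list up to 4 called genes or the 2 of the highest CPM; Pds5b, Pcdhga9, Pcdhga3, Pcdhga1, Ctcf and the markers were added after their values were seen. Alternatives were DESeq2, limma-voom, limma-trend with a pseudocount of 1 or 0.1 TPM, other scalings and filters, a length trend per library (mgcv, as edgeR offsets), the same with GC content, added after seeing the data, and each library left out. GC was known for 97.9% of tested genes and set to the median otherwise. The list of genes that silence the clusters is not reported here as a whole. Code was tested on simulated data. Versions used were DESeq2 1.42.0, edgeR 4.0.16, mgcv 1.9.3, limma 3.58.1 and R 4.3.3.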

Additional observations from a re-analysis of the deposited data

How the results depend on the processing

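The log2 fold change of Pcdhgc4 stayed below 0 under every alternative run, from -0.89 (without WT 8) to -1.23 (without WT 7). Its call was lost with limma-trend and a pseudocount of 1 TPM (-0.92) or 0.1 TPM (-0.95), which called 0 members, and without het 5 (-0.99) or het 7 (-1.12). Members called higher numbered 1 with upper-quartile scaling, with a mean of at least 1 CPM, with limma-voom and with length and GC trends removed, 4 with DESeq2 and with every gene with a count (Pcdhga12 added), 0 with the length trend removed, and 0 to 3 with a library left out. Members called lower were 0 or 1 with a library left out. Over all genes, calls higher and lower in het were 490 and 436. They were 795 and 391 with library size alone, 327 and 568 with upper-quartile scaling, 1304 and 907 with all genes that had a count, 867 and 780 with DESeq2, 237 and 222 with limma-voom, 0 and 1 with 1 TPM added, 2 and 3 with 0.1 TPM added, 52 and 29 with the length trend removed, and 59 and 28 with GC content added to it. With a library left out they ran from 0 to 588 and from 0 to 290. Summed TPM moved the log2 ratio of the gamma-C sum from -0.13 to -0.33, of all gamma genes from 0.17 to 0.018 and of all members from 0.18 to 0.051. With a library left out, log2 ratios of sums ran from 0.078 to 0.35 for beta, 0.23 to 0.74 for gamma-A, 0.33 to 0.79 for gamma-B, 0.064 to 0.28 for all gamma genes, 0.33 to 0.86 for these without Pcdhgc4, and 0.10 to 0.26 for all members. Signs turned for small values: with the length trend removed Pcdhgc5 was at -0.0057, Pcdhga10 at -0.032 and Pcdhb22 at -0.12 (-0.18 with GC too). With a library left out Pcdhga10 ran from -0.0066 to 0.23, Pcdhb22 from -0.053 to 0.25, Pcdhac2 from -0.036 to 1.65, Pcdhgc5 from -0.095 to 0.61, Rhoa from -0.080 to 0.25 and Rac1 from -0.11 to 0.39. Differences in isoform percent ran from -3.17 to 0.42 for Pcdhgc3, -13.9 to 0.025 for Pcdhgc5, -1.57 to 29.6 for Pcdhb22, -15.2 to 24.4 for Pcdhga12 and -17.9 to 2.46 for Pcdhgb2. The cause of these changes was not tested. No paired analysis was possible because the groups share only the number 7. WT 8 has the fewest counts and leaving it or WT 7 out leaves 1 WT library, assumed to vary like the het libraries.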
